A study of Mus musculus with 14 samples.

Results

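Serially replated Tet2 KO cells were compared with freshly sorted Tet2 KO granulocyte-macrophage progenitors (GMP). The comparison takes the 2 arrays whose titles name the 5th round of colony culture (CFU 5th) and the 2 arrays titled Tet2 KO GMP, which are 4 of the 14 arrays of the series. Every one of the 45101 probe sets was tested. The study measured mRNA on Affymetrix Mouse 430 2.0 arrays in wild-type (WT) and Tet2 KO stem and progenitor cells. The replated cells were grown from Tet2 deficient LSK cells (lineage-negative, c-Kit and Sca1 positive) sorted for CD150 and had been replated 5 times. The GMP were sorted from bone marrow as lineage-negative, c-Kit positive, Sca1-negative cells with high Fc gamma receptor and CD34. The KO mice were Tet2-/- Mx+ and the WT mice Tet2+/+ Mx+ littermates, all on a B6/129 background. Both genotypes carried Mx, and deletion was induced by injecting pIC. The labels give 4 weeks between deletion and sorting for LSK cells and common myeloid progenitors (CMP), and no interval for GMP. WT GMP, KO LSK and KO CMP, with 2 arrays each, are used for reference. Both groups compared carry the KO genotype, and no array of replated WT cells is among the 14, so what is due to culture alone and what to culture of KO cells cannot be told apart. The starting population, the culture and the gate all differ between the groups compared.

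Tet2 oxidises 5-methylcytosine in DNA, and its loss in blood cells is known for enhanced self-renewal and skewed myeloid output. GMP are committed progenitors of neutrophils and monocytes, and their transcriptome is dominated by the serine proteases and myeloperoxidase of primary granules, under control of Cebpa. Mast cells also arise from bone marrow progenitors. They depend on Kit and on Gata2 and Mitf, carry the high-affinity IgE receptor, and store chymases, tryptases, carboxypeptidase and amines in granules built on serglycin and heparin.

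The replated cells carried the transcripts of mast cell granules and of the IgE receptor. Of 16 genes listed as primary granule genes, some of which encode other proteins expressed in GMP, 12 were lower than in KO GMP. Of 11 mast cell markers, 10 were higher in replated cells than in KO GMP, and Hdc, which makes histamine, did not pass the test. The summed intensity of these 11 markers was 10175 and 10072 on the KO GMP arrays and 87830 and 90317 on the replated arrays. Of 7 measured GMP markers 5 were lower in replated cells, 4 of them (Mpo, Elane, Prtn3 and Ctsg) below background, while Cd34 and Fcgr3 did not pass. Their sums were 54242 and 54093 in GMP and 9332 and 10042 in replated cells, and the KO GMP arrays thus carried the markers that define GMP. Of the 4 measured stem cell markers Mecom and Slamf1 (CD150) were higher, Hlf was lower and Procr was below background in replated cells. The label of the replated arrays names the population that was plated (CD150+ LSK cells), so the cells as harvested are called replated cells here. In bulk samples, fewer cells of a type and less RNA per cell cannot be told apart.

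Across all probe sets 8553 (19.0%) passed an adjusted p of 0.05, with 3952 (8.76%) higher and 4601 (10.2%) lower in replated cells. Among 17404 autosomal genes, each read through its brightest probe set, 1630 (9.37%) were higher and 2462 (14.1%) lower. The counts per gene list below are to be set against these shares. At least 4-fold differences were found for 687 of the genes called higher and 867 of those called lower. The median log2 difference of all autosomal genes was -0.06. As a measure of background, each array's brightest bacterial control probe set was taken as its floor, between 20.8 and 27.8 intensity units. A gene with an array at or below the floor in its dimmer group is given as "at least" a fold, computed with the floor in place of lower values. The arrays correlated at r = 0.985 within KO GMP and r = 0.993 within replated cells, and array medians lay between 31.2 and 33.0. Whether a group's arrays stem from different animals or cultures is not stated. The p-values rest on the spread within all 7 groups of arrays, not only the 4 arrays compared, and that spread may be technical.

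The sex-linked transcripts did not match between the groups. Xist was 4980 and 5042 in KO GMP and 18.4 and 21.9 in replated cells, while Eif2s3y, on the Y chromosome, was 10.6 and 7.86 against 2056 and 2083. WT GMP were like the replated cells, with group levels of 21.3 for Xist and 1158 for Eif2s3y. KO LSK and KO CMP were like KO GMP, at 6590.5 and 6081.1 for Xist and 7.29 and 11.2 for Eif2s3y. Genes on X and Y were therefore left out of the biology, and autosomal genes were also set against WT GMP. These had little Xist and expressed Eif2s3y, as the replated cells did, but differ in genotype. Eif2s3y and Uty, both on the Y chromosome, were still higher in replated cells than in WT GMP. The log2 differences were 0.84 and 1.21 (adjusted p = 0.021 and 0.0075). Against WT GMP, 1796 autosomal genes (10.3%) were higher and 2521 (14.5%) lower, and KO GMP and WT GMP differed from each other at 12 (0.0689%).

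The targeted gene was read by 2 probe sets that disagreed. The brighter gave 2376 and 2229 in KO GMP and 1786 and 1823 in replated cells, a log2 difference of -0.35 ± 0.39 (SE, 2 arrays a group; adjusted p = 0.67). The dimmer gave 175 and 113 in KO GMP and 780 and 796 in replated cells, a difference of 2.49 ± 0.66 (adjusted p = 0.027). On the WT GMP arrays the brighter gave 2045 and 1204 and the dimmer 209 and 114, and neither KO group lay wholly below these arrays in either probe set. The sources used here do not say which of them lies in the deleted part, so neither checks the deletion.

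Promoters are shown for the 2 largest rises among mast cell protease and IgE receptor genes and the 2 largest falls among primary granule genes. Genes were ranked by the fitted difference, and Mcpt4, Cma1 and Ctsg lie in a single protease cluster. Mcpt4 and both granule genes are below background in their dimmer group, and by its bound Mcpt4 ranks below Tpsb2. Each runs 5′ to 3′ on the gene's strand from 250 bases before the annotated start to 50 bases after it (RefSeq, GRCm38.p6). Capitals mark matches on either strand to motifs read by GATA factors (AGATAA or its variant TGATAA), by MITF and other E-box factors (CACGTG or its variant CATGTG) or by C/EBP factors (TTGCNNAA).
Mcpt4, chr14:56062261-56062560, minus strand: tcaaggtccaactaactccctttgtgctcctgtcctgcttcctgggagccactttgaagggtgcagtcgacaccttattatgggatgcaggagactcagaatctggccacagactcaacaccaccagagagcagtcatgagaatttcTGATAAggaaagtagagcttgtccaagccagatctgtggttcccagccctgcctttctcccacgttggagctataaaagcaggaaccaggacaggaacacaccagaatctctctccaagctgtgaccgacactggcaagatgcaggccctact
Cma1, chr14:55944626-55944925, minus strand: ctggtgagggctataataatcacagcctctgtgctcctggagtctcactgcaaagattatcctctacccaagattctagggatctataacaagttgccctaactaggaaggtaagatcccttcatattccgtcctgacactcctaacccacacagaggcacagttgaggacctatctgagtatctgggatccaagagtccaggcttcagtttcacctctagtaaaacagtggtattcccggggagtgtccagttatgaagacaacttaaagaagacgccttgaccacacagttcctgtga
Ctsg, chr14:56102525-56102824, minus strand: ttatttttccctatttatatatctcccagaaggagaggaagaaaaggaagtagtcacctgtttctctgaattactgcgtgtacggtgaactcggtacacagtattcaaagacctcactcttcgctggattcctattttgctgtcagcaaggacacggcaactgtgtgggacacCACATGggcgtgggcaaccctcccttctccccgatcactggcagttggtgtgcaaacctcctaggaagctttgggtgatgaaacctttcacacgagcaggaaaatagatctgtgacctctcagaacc
Mpo, chr11:87793534-87793833, plus strand: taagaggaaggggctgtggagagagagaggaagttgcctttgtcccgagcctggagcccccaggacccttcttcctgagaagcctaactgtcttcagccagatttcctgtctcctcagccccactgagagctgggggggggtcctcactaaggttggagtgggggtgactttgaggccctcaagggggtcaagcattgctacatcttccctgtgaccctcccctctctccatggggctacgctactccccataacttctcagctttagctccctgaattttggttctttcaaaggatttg
The Mcpt4 window held TGATAA at position -103 from the start, and the Ctsg window held CATGTG on the opposite strand at -77. The Cma1 and Mpo windows held none of these letters. Over 32851 promoters of the same length, AGATAA was present in 11.2%, TGATAA in 9.1%, CACGTG in 7.2%, CATGTG in 14.2% and TTGCNNAA in 10.8%.

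Granule proteases changed in both directions, several by over 100-fold. Of 11 measured proteases of mast cells and basophils, 9 rose and 2 fell in replated cells, against 9.37% and 14.1% of all autosomal genes, with a median log2 difference of 6.08 (5.83 with bounded genes at their bound). Cma1, a chymase of connective tissue mast cells, read 24.1 and 34.4 in KO GMP and 15287 and 15569 in replated cells. The 2 groups lay far apart, and the difference was 536-fold (log2 9.07 ± 0.18, adjusted p = 6.1e-09). Mcpt4, another chymase of connective tissue mast cells, read 5.54 and 7.61 in KO GMP, below background, and 3671 and 3725 in replated cells, at least 145-fold higher (adjusted p = 4.0e-09). Mcpt2, a protease of mucosal mast cells, went from 7.81 and 6.82 to 3533 and 3554, at least 139-fold (adjusted p = 3.0e-09). The other mucosal protease, Mcpt1, reached only 189 and 231, at least 8.17-fold over the floor. Proteases of connective tissue and mucosal mast cells were thus present together on both replated arrays.

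The tryptases, trypsin-like proteases bound to heparin in the granule, followed. Tpsb2 read 29.8 and 26.2 in KO GMP against 7293 and 6997, at least 248-fold higher (adjusted p = 4.3e-07). Tpsab1 read 8.11 and 8.02 against 1100 and 1141, at least 43.8-fold higher, and the membrane-anchored Tpsg1 was at least 57.0-fold higher. Cpa3, the mast cell carboxypeptidase, was already well above background in KO GMP at 991 and 1453. It reached 13438 and 14150 in replated cells, 11.5-fold higher (log2 3.52 ± 0.33, adjusted p = 9.1e-05). Gzmb, a granzyme of cytotoxic lymphocytes that mast cells also make, rose 67.6-fold from 130 and 107 to 7697 and 8206. Proteases of these families are close in sequence, and probe sets of related members may share signal.

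Mcpt8, the protease that marks basophils, went the other way. It read 857 and 1022 in KO GMP and 496 and 486 in replated cells, a fall of 0.93 ± 0.25 on the log2 scale (adjusted p = 0.030) that did not pass once any 1 of the 4 arrays was left out, or in the fit of the 8 KO arrays. Ctsg, the cathepsin of neutrophil primary granules, fell from 10875 and 10468 to 10.5 and 10.7, at least 491-fold (adjusted p = 6.1e-09). Cma1, Mcpt1, Mcpt2, Mcpt4, Mcpt8, Ctsg and the granzymes lie next to each other on chromosome 14, a view chosen after their values were seen. In that order the log2 difference was 9.07 for Cma1, at least 3.03 for Mcpt1, at least 7.12 for Mcpt2, at least 7.18 for Mcpt4, -0.93 for Mcpt8 and -8.94 or lower for Ctsg. The 4 raised proteases and Ctsg thus lie on either side of Mcpt8. The next 6 genes, Gzme, Gzmd, Gzmg, Gzmn, Gzmf and Gzmc, had group levels between 3.66 and 10.3, below background in both groups, and did not pass. Gzmb, the last in the order, rose by 6.08.

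**Figure D1:**
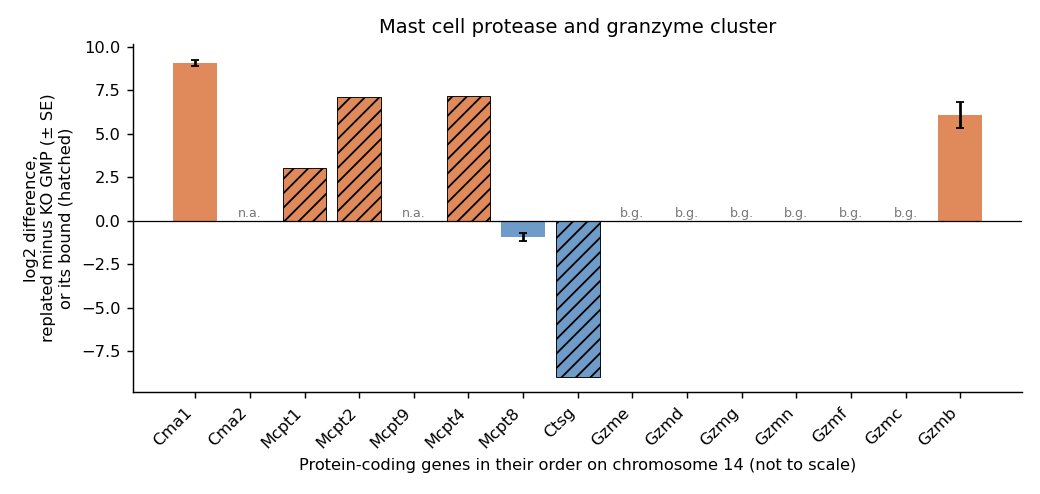
Log2 difference between replated Tet2 KO cells and KO GMP (vertical axis, bars) for genes of the mast cell protease and granzyme cluster in their order on chromosome 14. Orange bars passed as higher and blue bars as lower, with the standard error of the fit, and hatched bars are bounds, drawn without an error because the dimmer group lies below background. Genes below background in both groups (b.g.) have no bar, and Cma2 and Mcpt9 (n.a.) were not analysed here. Cma1 and Gzmb rise by 9.07 and 6.08, Mcpt1, Mcpt2 and Mcpt4 by at least 3.03, 7.12 and 7.18, and Ctsg reaches -8.94 or lower.

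The IgE receptor and its signalling chain rose as a group, with 12 of 15 autosomal members (80.0%) higher and 0 lower. Among all autosomal genes 9.37% were higher and 14.1% lower, and the median log2 difference of the list was 2.15. The receptor has an IgE-binding alpha chain (Fcer1a), an amplifying beta chain (Ms4a2) and a signalling gamma chain (Fcer1g). Fcer1a read 321 and 505 in KO GMP and 13629 and 14796 in replated cells, 35.3-fold higher (log2 5.14 ± 0.54, adjusted p = 0.00017). Ms4a2 read 395 and 345 against 7214 and 7369, 19.8-fold higher (adjusted p = 0.0015). Fcer1g, which other Fc receptors share, rose only 2.04-fold, from 3109 and 3676 to 6653 and 7124. All 3 chains thus rose, with no overlap between the groups, which also holds for 65.8% of all autosomal genes. Cd200r3, an activating receptor of mast cells and basophils, went from 28.1 and 20.1 to 3559 and 3742, at least 131-fold. It also passed as higher in KO GMP than in WT GMP, where its level was 5.31.

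Downstream of the receptor, adaptors rose. Lat, the membrane scaffold, increased 21.3-fold from 69.1 and 78.2 to 1555 and 1577 (adjusted p = 0.00018). Lat2, a related scaffold, rose 9.40-fold, the adaptor Gab2 10.9-fold, the exchange factor Rasgrp4 6.57-fold and the adaptor Lcp2 4.44-fold. The kinase Fyn rose 2.22-fold, the phospholipase Plcg1 3.44-fold and the inhibitory phosphatase Inpp5d 2.65-fold. The 3 members that did not pass were the kinase Syk, at 384 and 321 against 336 and 316, the phospholipase Plcg2 and the exchange factor Vav1. In each of these 3 the arrays of the groups overlapped.

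Of 12 enzymes and transporters of stored amines and lipid mediators 8 rose and 1 fell, with a median of 2.83 (1.91 with bounded genes at their bound). Tph1, the first enzyme of serotonin synthesis outside neurons, read 12.5 and 11.3 in KO GMP, below background, and 9540 and 12197 in replated cells, at least 422-fold higher (adjusted p = 1.2e-08). The decarboxylase Ddc, which completes serotonin synthesis, was at least 11.1-fold higher at 283 and 283. Slc18a2, which loads amines into granules, rose 18.3-fold from 383 and 360 to 6476 and 7151. Slc6a4, the serotonin transporter, reached 84.1 and 69.0. These 4 measured genes of serotonin synthesis, storage and uptake were therefore higher. Hdc, which makes histamine, stood at 1438 and 1549 in KO GMP and at 967 and 855 in replated cells. This difference did not pass (log2 -0.71 ± 0.95, adjusted p = 0.73), and its SE also draws on the spread within the other groups of arrays.

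Among lipid mediator genes, Alox5, the 5-lipoxygenase of leukotriene synthesis, rose 53.3-fold from 47.4 and 79.7 to 3096 and 3465 (adjusted p = 2.9e-06). Ltc4s, which makes leukotriene C4, was at least 4.75-fold higher, and Alox5ap, which presents the substrate to Alox5, rose 1.65-fold. The Alox5ap call was lost without the second replated array or without the first GMP array. Lta4h, the enzyme of the alternative leukotriene B4 branch, fell 3.30-fold from 2061 and 2021 to 613 and 625, although another of its probe sets moved the other way. Hpgds, the prostaglandin D synthase of mast cells, was at least 37.8-fold higher, at 1263 and 1133. Pla2g4a and Ptgs2, which release and oxidise arachidonic acid, did not pass.

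Of 14 heparin and serglycin genes 4 (28.6%) rose and 1 (7.14%) fell, against 9.37% and 14.1% of all autosomal genes. Their median of -0.01 was close to that of all genes. Ndst2, the sulfotransferase that mast cells need to make heparin, stood apart with a rise of 24.9-fold, from 259 and 240 to 6291 and 6141 (adjusted p = 0.00033). Hs2st1 and Hs6st1, later sulfotransferases, rose 2.20-fold and 2.11-fold, and the epimerase Glce fell 2.03-fold. Srgn, the serglycin core protein, was high in both groups, at 8907 and 8722 against 11208 and 11848. Its rise of 0.39 ± 0.11 (adjusted p = 0.035) was lost without any 1 of the 4 arrays, after median centring, in the fits of the 4 arrays alone and of the 8 KO arrays, and against WT GMP.

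Transcription factors known in mast cells rose in 8 of 11 cases and fell in 1, with a median of 1.42. Mitf read 1305 and 894 in KO GMP and 7097 and 7323 in replated cells, 6.67-fold higher (log2 2.74 ± 0.36, adjusted p = 0.00071). Gata2 was high in GMP at 4367 and 3687 and rose 3.25-fold to 13222 and 12824. Bhlhe40, a repressor of the bHLH family, had the largest rise of the list, 65.2-fold, from 61.8 and 60.7 to 4092 and 3893. Hes1 (8.52-fold), a Notch target, Tal1 (5.84-fold) and Ikzf2 (2.68-fold) rose as well. Stat5a and Stat5b, which relay cytokine signals, rose 1.47-fold and 1.40-fold. The Stat5a call was lost without the second GMP array and the Stat5b call without any 1 of the 4 arrays and in the fits of the 4 arrays alone and of the 8 KO arrays. Tfec, a relative of Mitf, fell from 2155 and 2227 to 6.56 and 7.47, at least 101-fold. Zeb2 and Zfpm1 did not pass, and their arrays overlapped.

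Of 15 growth factor and alarmin receptors of mast cells, 9 rose and 1 (Siglecf) fell, with a median of 1.44. Kit, the receptor for stem cell factor, rose 3.68-fold from 1291 and 1564 to 4913 and 5568 (log2 1.88 ± 0.19, adjusted p = 0.00014). Csf2rb, the shared beta chain of the IL-3, IL-5 and GM-CSF receptors, rose 5.94-fold to 8971 and 10086. The mouse-specific IL-3 receptor beta chain, Csf2rb2, rose 100-fold, from 86.5 and 85.7 to 8303 and 8982 (adjusted p = 0.00093). These 2 genes are near-identical copies, and their probe sets may share signal. Il3ra, the alpha chain, did not pass at 202 and 194 against 171 and 164. Il4ra rose 9-fold, the prostaglandin E receptor Ptger3 11.6-fold and the activating receptor Pilrb1 26.8-fold. Mrgprb1, of a receptor family found on mast cells, was below background in GMP and 88.7 and 118 in replated cells.

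Several markers of eosinophils were lower, while those of basophils differed among themselves. Of 7 eosinophil genes 0 were higher and 4 lower: Prg2 and Prg3, major basic proteins, Epx, the eosinophil peroxidase, and Siglecf. Prg2 read 394 and 246 in KO GMP and 8.72 and 8.09 in replated cells, at least 14.3-fold lower (adjusted p = 0.0043), and Siglecf was at least 24.8-fold lower. The summed intensity of the 5 eosinophil markers was 971 and 1037 in GMP and 93.4 and 82.5 in replated cells, where Prg2, Epx, Ccr3 and Siglecf lay below background. Of 5 measured basophil markers, Cd200r3 and Fcer1a rose, which mast cells share, Mcpt8 fell, and Il3ra and Hdc did not pass. The summed intensity of these 5 was 2846 and 3290 in GMP and 18823 and 20043 in replated cells, and the part of basophils in the results above was not tested.

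**Figure D2:**
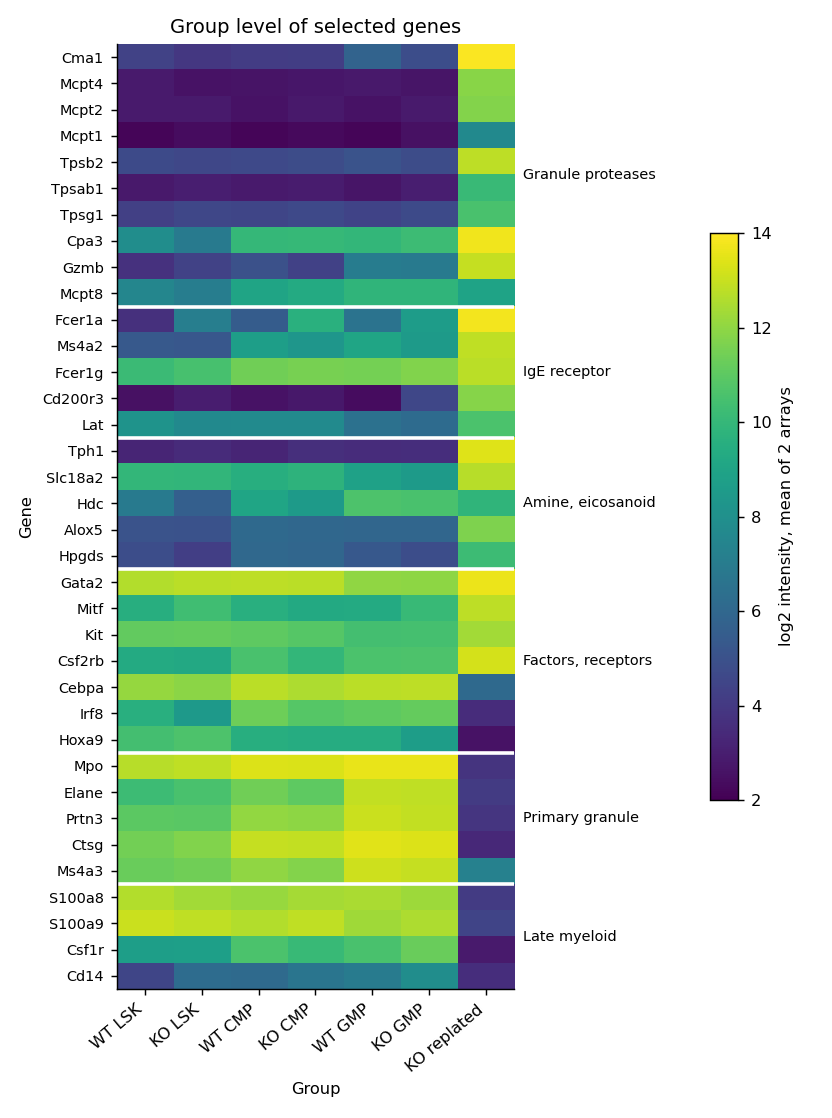
Group levels (mean log2 intensity of 2 arrays, colour scale) of 36 genes (rows, grouped by function) in the 7 groups of arrays (columns). Granule protease, IgE receptor and amine genes are brightest in the replated column, except Mcpt8 and Hdc, while Mpo, Elane, Prtn3, Ctsg, S100a8, S100a9, Csf1r and Cd14 are darkest there.

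Transcripts of the neutrophil primary granule proteins Mpo, Elane, Prtn3 and Ctsg fell to below background. The list they belong to also holds genes of other proteins expressed in GMP. Of its 16 measured members 12 fell and 2 rose, with a median log2 difference of -5.82. Mpo, myeloperoxidase, read 12425 and 12276 in KO GMP and 14.1 and 14.2 in replated cells, at least 568-fold lower (adjusted p = 7.5e-10). Elane, neutrophil elastase, went from 7321 and 7234 to 14.8 and 19.9, at least 335-fold. Prtn3, proteinase 3, went from 7652 and 7802 to 19.2 and 11.2, at least 356-fold. Ly86, another member of the list, also fell to below background, at least 109.5-fold. The cultures began from LSK cells sorted for CD150, which the titles of the KO LSK arrays do not name. The sex-linked transcripts of KO LSK also differed from those of replated cells. In KO LSK, Mpo, Elane and Prtn3 had levels of 7478, 1492 and 1940. All 3 were thus lower in replated cells than in any sorted KO population shown, where the lowest levels were those of KO LSK.

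Other members fell to levels still above background. Ms4a3, a marker of GMP, went from 8119 and 7739 to 146 and 165, 51.2-fold lower (adjusted p = 1.7e-08), and Plac8 fell 24.2-fold. Nkg7, a granule membrane protein, fell 62.1-fold, Lyz2, lysozyme, 35.0-fold, Hp, haptoglobin, 89.6-fold, and Anxa3 109-fold. Gstm1 fell 3.77-fold. The 2 members that rose are not restricted to neutrophils: Ctsc, the peptidase that activates granule serine proteases of both lineages, rose 2.80-fold from 1487 and 1859 to 4222 and 5142. Serpinb1a, an inhibitor of those proteases, rose 2.32-fold. Cst7, a cathepsin inhibitor, and Calr, an ER chaperone, did not pass.

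Of 13 late neutrophil genes 9 fell and 0 rose, with a median of -4.11 (-3.95 with bounded genes at their bound). S100a8 read 5347 and 4532 in GMP and 16.4 and 17.7 in replated cells, at least 227-fold lower, and its partner S100a9 was at least 260-fold lower (adjusted p = 1.4e-08). The granule proteins Ngp and Camp were at least 65.8-fold and 48.5-fold lower and the chitinase-like Chil3 at least 25.4-fold. These genes are markers of mature neutrophils, and the 6 measured neutrophil markers summed to 15269 and 12480 in GMP against 132 and 114. Levels of S100a9, S100a8, Ngp, Camp and Chil3 were 7456, 5175, 1982, 1110 and 503 in KO LSK. In KO GMP they were 5821.5, 4922, 1429, 1135 and 551, so these transcripts were not particular to GMP.

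Monocyte and macrophage genes were lower in 15 of 25 cases and higher in 4, with a median of -1.93. Csf1r, the receptor for M-CSF, read 2594 and 2306 in GMP and 8.75 and 6.14 in replated cells, at least 113-fold lower (adjusted p = 6.5e-05). Irf8, the factor that drives monocyte fate, went from 2590 and 2058 to 13.7 and 9.52, at least 106-fold. Ms4a6c, Mpeg1, Ctss and Cd14 also fell to below background, by at least 209-fold, 60.6-fold, 53.4-fold and 11.0-fold. The 4 that rose, chosen here after their values were seen, were Lgals3 (12.4-fold), Vcan (8.79-fold), Maf (3.47-fold) and Cx3cr1 (2.78-fold). Of 13 dendritic cell genes 4 fell (Tcf4 7.03-fold, Flt3, Itgax and Spib) and 0 rose. The Itgax and Spib calls were lost without any 1 of the 4 arrays, which left 2, and Spib did not pass against WT GMP. Of 9 autosomal MHC class II genes 4 fell: H2-DMb2 (at least 21.3-fold), H2-Ab1 (16.4-fold), H2-DMa (8.68-fold) and the invariant chain Cd74 (8.85-fold), whose call was lost against WT GMP.

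**Figure D3:**
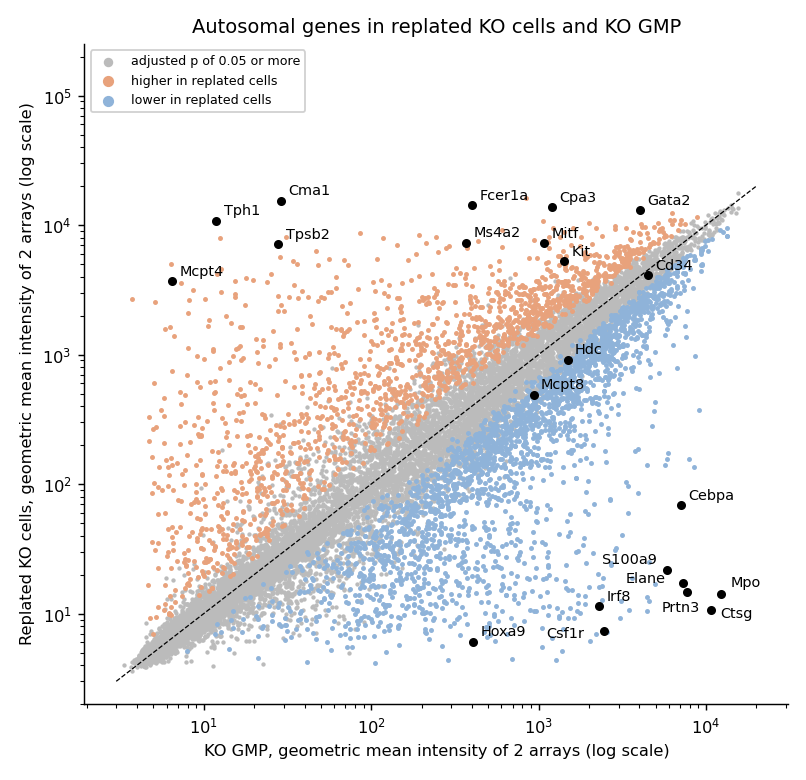
Geometric mean intensity of the 2 KO GMP arrays (horizontal axis) and of the 2 replated KO arrays (vertical axis), both on log scales, for 17404 autosomal genes. Orange points passed as higher and blue points as lower in replated cells, black points are named genes and the dashed line marks equality. Cma1, Tph1 and Mcpt4 lie at the upper left, Mpo, Ctsg and Elane at the lower right, and Cd34 and Hdc near the line.

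Genes by which GMP and their neighbours are sorted did not move together. Of 8 gate genes 2 (25.0%), Kit and Slamf1, rose, 2 (25.0%) fell and 4 did not pass, with a median of -0.21. Cd34 read 4468 and 4558 in KO GMP and 3673 and 4564 in replated cells, with overlapping arrays (log2 -0.14 ± 0.15, adjusted p = 0.64). Fcgr3 read 3382 and 4016 against 5454 and 5258 and did not pass (0.54 ± 0.22, adjusted p = 0.14). The related Fcgr2b, an inhibitory Fc receptor, fell 2.94-fold from 1552 and 1691 to 572 and 531, and Fcgr4 fell 7.01-fold. Slamf1, the CD150 gene by which the starting cells were sorted, read 113 and 100 against 414 and 441, 4.01-fold higher (adjusted p = 0.025). That call was lost without any 1 of the 4 arrays. Its levels in KO LSK and KO CMP were 454 and 333.

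Several regulators of the neutrophil and monocyte programme fell. Of 24 myeloid transcription regulators 6 rose and 9 fell, with a median of -0.40. Cebpa, which GMP formation requires, read 6883 and 7368 in KO GMP and 62.7 and 75.8 in replated cells, 103-fold lower (log2 -6.69 ± 0.14, adjusted p = 7.8e-09). Spi1, encoding PU.1, fell 2.42-fold from 337 and 288 to 131 and 126. Cebpb did not pass at 348 and 296 against 117 and 77.6 (adjusted p = 0.069), and neither did Gfi1, a repressor needed for neutrophils, at 960 and 1077 against 680 and 801. Id2, an inhibitor of E proteins, rose 23.7-fold from 241 and 352 to 6508 and 7299. Satb1 fell 2.84-fold and Myc 3.03-fold, the latter from 2180 and 2303 to 680 and 806. Myb did not pass (1.27-fold, adjusted p = 0.066).

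Receptors for the cytokines of those lineages fell in 10 of 21 cases (47.6%) and rose in 6 (28.6%), with a median of -0.80. All autosomal genes also fell more often than they rose, at 14.1% against 9.37%. Against WT GMP the receptors were lower in 9 cases and higher in 7. Csf3r, the G-CSF receptor, was at least 9.48-fold lower, below background on both replated arrays at 9.54 and 10.6. Cxcr4, which holds progenitors in marrow, fell 8.81-fold from 9036 and 8211 to 1012 and 945. Ifngr1 and Tnfrsf1a fell 13.5-fold and 19.6-fold. Csf2ra, the alpha chain of the GM-CSF receptor, fell 8.79-fold, while Tgfbr1 and Tgfbr2 rose 5.75-fold and 6.70-fold. These last 3 genes were chosen after their values were seen.

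Stem cell and self-renewal genes had no shared direction. Of 19 autosomal members 6 (31.6%) rose and 3 (15.8%) fell, against 9.37% and 14.1% of all autosomal genes. The median was -0.16, and the 6 rises became 1 to 3 when any 1 of the 4 arrays was left out. Mecom, encoding Evi1, read 471 and 524 in KO GMP and 2805 and 3155 in replated cells, 5.99-fold higher (log2 2.58 ± 0.64, adjusted p = 0.021). Its call was lost without any 1 of the 4 arrays, and its levels in KO LSK and KO CMP were 4061 and 2177. Meis1 read 64.1 and 86.4 against 434 and 421 and did not pass (adjusted p = 0.060). Vwf rose 28.1-fold, from 76.0 and 43.9 to 1678 and 1563. The factors Hlf and Prdm16 fell, Hlf 8.08-fold and Prdm16 at least 12.5-fold. Angpt1 rose 2.17-fold, a call lost without the second replated array, and its receptor Tek 8.52-fold. Tek, and Hoxb4, which fell 1.96-fold, were chosen after their values were seen.

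Of the 12 Hoxa and cofactor genes 3 (25.0%) fell, 1 (8.33%) rose and 8 did not pass. Among all autosomal genes 14.1% fell and 9.37% rose. Below background in both groups were 4 of the 12. Hoxa9, which sustains myeloid progenitor growth, read 419 and 396 in KO GMP and 6.91 and 5.31 in replated cells, at least 18.7-fold lower (adjusted p = 1.2e-07). Its KO LSK level was 1596. Hoxa10 was at least 6.85-fold lower, with an uneven 66.2 and 334 in GMP. Hoxa7 fell 1.63-fold, a call lost without any 1 of the 4 arrays, in the fit of the 8 KO arrays, with the replicate block and with a trended robust variance. The cofactor Pbx3 rose 7.24-fold, a call lost without either replated array or without the second GMP array.

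Genes of DNA methylation and its removal fell in 7 of 18 cases (38.9%) and rose in 3 (16.7%), with a median of -0.43. The shares of all autosomal genes were 14.1% and 9.37%. Without the first replated array 1 of the 3 rises was left. Tet1 read 636 and 424 in KO GMP and 23.1 and 40.4 in replated cells, 17.0-fold lower (log2 -4.09 ± 0.45, adjusted p = 0.00022). Tet3 did not pass at 118 and 99.1 against 316 and 191 (adjusted p = 0.12). The de novo methyltransferase Dnmt3b fell 11.5-fold from 1715 and 1550 to 96.7 and 207, while Dnmt3a, at 3228 and 2218 against 2209 and 1627, did not pass. Idh2, a mitochondrial enzyme that makes the 2-oxoglutarate used by TET enzymes, fell 4.69-fold. Uhrf1, which guides maintenance methylation in dividing cells, fell 2.33-fold, and Gadd45a rose 3.34-fold. The other 2 rises, Mbd1 (2.78-fold) and Mbd2 (1.74-fold), readers of methylated DNA, were chosen after their values were seen.

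Other lineages were mixed. Of 15 erythroid genes 8 fell and 0 rose, with Car1 and Car2, carbonic anhydrases, 113-fold and 3.77-fold lower, Ermap 13.9-fold and the transferrin receptor Tfrc 4.75-fold lower, and the count was 5 without the second replated array. Haemoglobin alpha was below background in both groups. Of 17 megakaryocyte genes 7 rose and 5 fell, the falls numbering 3 without the second replated or the first GMP array. Itga2b and Itgb3, the integrin pair of platelets, rose 9.43-fold and 5.90-fold, Itga2b from 183 and 197 to 1696 and 1892, and the exocytosis factor Rab27b rose 17.6-fold. The platelet chemokine Pf4 fell 7.11-fold and P-selectin, Selp, at least 23.3-fold. Selp was also higher in KO GMP than in WT GMP, by 2.14 on the log2 scale (adjusted p = 0.039). Against WT GMP its log2 difference in replated cells was -2.97. The other 3 falls, chosen after their values were seen, were Mmrn1, Treml1 and Ppbp. Itgb3 and Rab27b are known in mast cells too. Of 20 B, T and NK cell genes 6 fell and 0 rose, led by Cd79b, at least 31.8-fold lower, and Ebf1 and Ms4a1 did not pass against WT GMP.

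Genes of DNA replication were lower in replated cells, in 28 of 34 autosomal cases, with 2 higher and a median log2 difference of -1.73. Mcm6, a subunit of the replicative helicase, read 2926 and 2938 in KO GMP and 905 and 873 in replated cells, 3.30-fold lower (log2 -1.72 ± 0.13, adjusted p = 1.8e-05). Gins1, of the GINS complex, fell 8.42-fold from 2211 and 2153 to 281 and 239, and its partner Cdc45 5.68-fold. Mcm5 fell 4.36-fold and Rrm1, of ribonucleotide reductase, 3.35-fold. In each of these 5 genes both replated arrays lay below both GMP arrays. The arrays of the groups did not overlap, in either direction, in 65.8% of all autosomal genes. The 2 that rose, named after their values were seen, were Chaf1b (4.00-fold) and Rfc2 (1.48-fold), and 1 was left without any 1 of the 4 arrays.

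Of 29 mitotic genes 14 fell and 0 rose, with a median of -0.67, and leaving out any 1 of the 4 arrays left 7 to 9. Cdk1, the mitotic kinase, fell 3.30-fold from 3173 and 3082 to 948 and 945 (adjusted p = 0.00034). Aurka fell 2.66-fold, Cenpa 2.55-fold, Cdc20 2.39-fold and Top2a 1.81-fold. With all probe sets of a gene averaged, Cenpa and Top2a no longer passed. Mki67, a proliferation marker named after its values were seen, was 1062 and 487 against 701 and 646 and did not pass. Of 8 inhibitors of cyclin-dependent kinases 4 rose and 0 fell. Cdkn1a, encoding p21, rose 12.7-fold from 113 and 134 to 1607 and 1525 (log2 3.67 ± 0.50, adjusted p = 0.00078). Cdkn2a, of the Ink4a/Arf locus, was below background in GMP at 12.5 and 17.0 and reached 140 and 106, at least 4.77-fold higher. Its neighbour Cdkn2b, at 32.9 and 31.2, was at least 1.25-fold higher, and did not pass with values raised to the floor. Cdkn2d rose 1.84-fold, a call lost without either replated array or the first GMP array, in the fit of the 8 KO arrays, with a trended robust variance and against WT GMP.

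**Figure D4:**
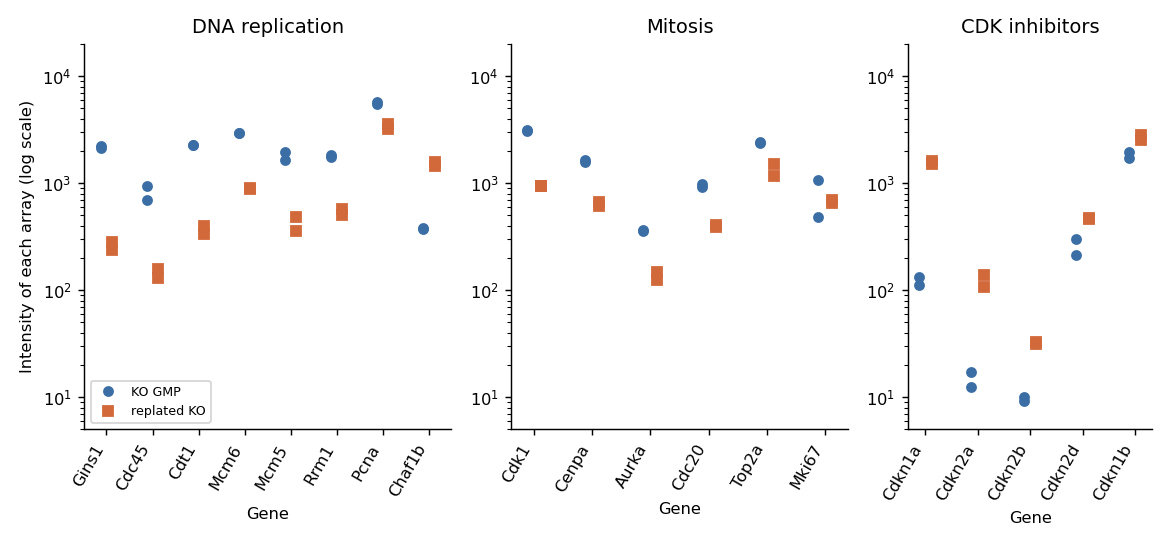
Intensity of each array (vertical axis, log scale) for genes of DNA replication, mitosis and cyclin-dependent kinase inhibition. Circles are the 2 KO GMP arrays and squares the 2 replated arrays. The groups separate for Gins1, Cdc45, Mcm6 and Cdk1, with replated cells lower, and for Cdkn1a and Cdkn2a, with replated cells higher, while they overlap for Mki67.

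Among the 12 largest rises above background, Cd55, which protects cells from complement, read 29.7 and 32.5 in KO GMP and 7763 and 8450 in replated cells, 261-fold higher (log2 8.03 ± 0.62, adjusted p = 2.4e-05). Cyp11a1, which converts cholesterol to pregnenolone, rose 140-fold from 31.7 and 40.9 to 4913 and 5170. That rise rests on 1 probe set, since of its 2 others 1 lay below the floor and 1 did not pass. The others were Plxdc2 (155-fold), the actin regulator Enah (133-fold), the growth factor binding protein Igfbp5 (102-fold), the prion protein gene Prnp (100-fold), the adhesion molecule Cadm1 (98.6-fold), Mamdc2 (81.0-fold) and the nuclear lamin gene Lmna (76.9-fold), beside Cma1, Csf2rb2 and Gzmb. Lmna was uneven in GMP at 135 and 35.5. Among 285 genes that rose from below background, those with the smallest p outside the proteases were the proton channel Otop1, at 1720 and 1431, the neuropeptide Y receptor Npy1r and the orphan receptor Gpr176. They were at least 61.4-fold, 37.8-fold and 118-fold higher.

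Among the largest falls, the kinase Sgk3 went from 4503 and 4610 to 27 and 23.2, 182-fold lower (log2 -7.51 ± 0.17, adjusted p = 8.9e-09). Mef2c, a transcription factor of myeloid and lymphoid progenitors, fell 91.2-fold from 2599 and 3103 to 41.3 and 23.5. Phgdh, the first enzyme of serine synthesis, fell 57.2-fold, the glutathione transferase Mgst1 77.3-fold, the transporter Slco3a1 77.7-fold, the adhesion molecule Ncam1 71.8-fold and Serpinf1 56.2-fold. A total of 324 genes fell to below background. Those with the smallest p included, beside Mpo, Elane and Ms4a6c, the adhesion receptor Adgrl4 (at least 140-fold), the peptidase Dpp4 (at least 165-fold) and Aff3 (at least 143-fold). Adgrl4, Dpp4 and Aff3 had levels of 5562, 4446 and 5170 in KO LSK, each above its KO GMP arrays.

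Of 28 chemokine and cytokine genes 7 (25.0%) rose and 5 (17.9%) fell, against 9.37% and 14.1% of all autosomal genes, and 16 did not pass. Their median log2 difference was 0.05, and the falls numbered 3 without the second replated array or against WT GMP. Ccl2, a monocyte attractant, rose 38.8-fold from 39.6 and 49.9 to 1851 and 1605 (adjusted p = 2.3e-07). Ccl7 and Lif, a cytokine of the IL-6 family, were at least 9.40-fold and 48.9-fold higher, and Ccl1 at least 1.67-fold. Ccl9 fell 34.2-fold from 5934 and 5954 to 162 and 186. Chosen after their values were seen, Il6 went from 12.8 and 21.3 to 1011 and 1326, at least 45.3-fold higher, and Il4 was at least 8.71-fold higher at 229 and 219. The other falls, named on the same basis, were Ccl6 (9.88-fold), Ccl4 (7.90-fold), Ccl3 (at least 7.77-fold) and Tgfb1 (1.94-fold). Interferon-stimulated genes fell in 9 of 30 cases (30.0%) and rose in 0. Among the falls were Gbp3 (32.3-fold), Ifit2 (at least 11.8-fold), Ifih1 (5.03-fold) and the immunoproteasome subunits Psmb9 (6.17-fold) and Psmb8 (2.82-fold).

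Of 21 autosomal cholesterol genes 11 (52.4%) rose and 1 (Scap, 1.60-fold) fell, against 9.37% and 14.1% of all autosomal genes, with a median of 0.71. Msmo1, a demethylation enzyme of the pathway, rose 10.3-fold from 243 and 252 to 2583 and 2488 (log2 3.36 ± 0.24, adjusted p = 1.6e-05). Sqle, squalene epoxidase, rose 5.52-fold, Cyp51 4.61-fold, Idi1 4.05-fold and Mvd 3.31-fold. Glycolysis genes rose in 5 and fell in 5 of 20 cases (25.0% each), with a median of -0.22, the rises numbering 3 without either replated array. The glucose transporters Slc2a1 and Slc2a3 each rose 3.45-fold, Pdk1, which restrains pyruvate oxidation, fell 11.6-fold from 5020 and 4930 to 445 and 415, and Hk3 fell 9.21-fold. Ldhb was at least 29.6-fold lower. The remaining calls, chosen after their values were seen, were the isozymes Eno2 (at least 41.7-fold) and Aldoc (at least 21.0-fold) and Hk1 (2.88-fold), which were higher, and Hk2 (2.55-fold) and Tpi1 (1.97-fold), which were lower. Of 26 autosomal lysosomal genes 6 (23.1%) rose and 4 (15.4%) fell, with a median of 0.29: Ctsd and Tpp1 rose 5.67-fold and 3.08-fold, and the cathepsins Ctsl and Ctsh were at least 17.8-fold and 26.4-fold lower, as was Ctss above, while Ctsz, chosen after its values were seen, fell 2.75-fold.

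Adhesion and survival genes had no common direction. Of 24 integrins and adhesion receptors 6 (25.0%) rose and 6 (25.0%) fell, against 9.37% and 14.1% of all autosomal genes. The rises numbered 3 without either replated array or without the second GMP array. Itga1, a collagen receptor chain, went from 1947 and 1161 to 9.42 and 9.20, at least 69.2-fold lower, Itgal, of LFA-1, was at least 17.5-fold lower and Emb fell 20.9-fold. In the BCL2 family 3 of 16 genes (18.8%) rose and 2 (12.5%) fell, the latter a share close to that of all genes. Without the first replated or the first GMP array 1 rise was left. Without either replated or the second GMP array 1 fall was left. Bcl2l1, a survival factor, rose 3.40-fold from 94.3 and 134 to 382 and 382 (adjusted p = 0.00024), and Bcl2l12 fell 5.22-fold. Bcl2 rose 2.29-fold, Bbc3 rose 1.81-fold and Bak1 fell 1.83-fold. The Bcl2 call was lost without the first replated or the first GMP array, and those of Bbc3 and Bak1 without any 1 of the 4 arrays and in the fit of the 8 KO arrays. Of 21 immediate early genes 4 (19.0%) rose, 2 (9.52%) fell and 15 did not pass. Ier3 rose 7.67-fold, Jund 2.35-fold and Batf 7.40-fold, and Dusp2 fell 4.24-fold, beside Myc. Fosl2, chosen after its values were seen, rose 2.65-fold. The rises numbered 2 without either replated array or the second GMP array, and Batf was lost in each of those settings.

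**Figure D5:**
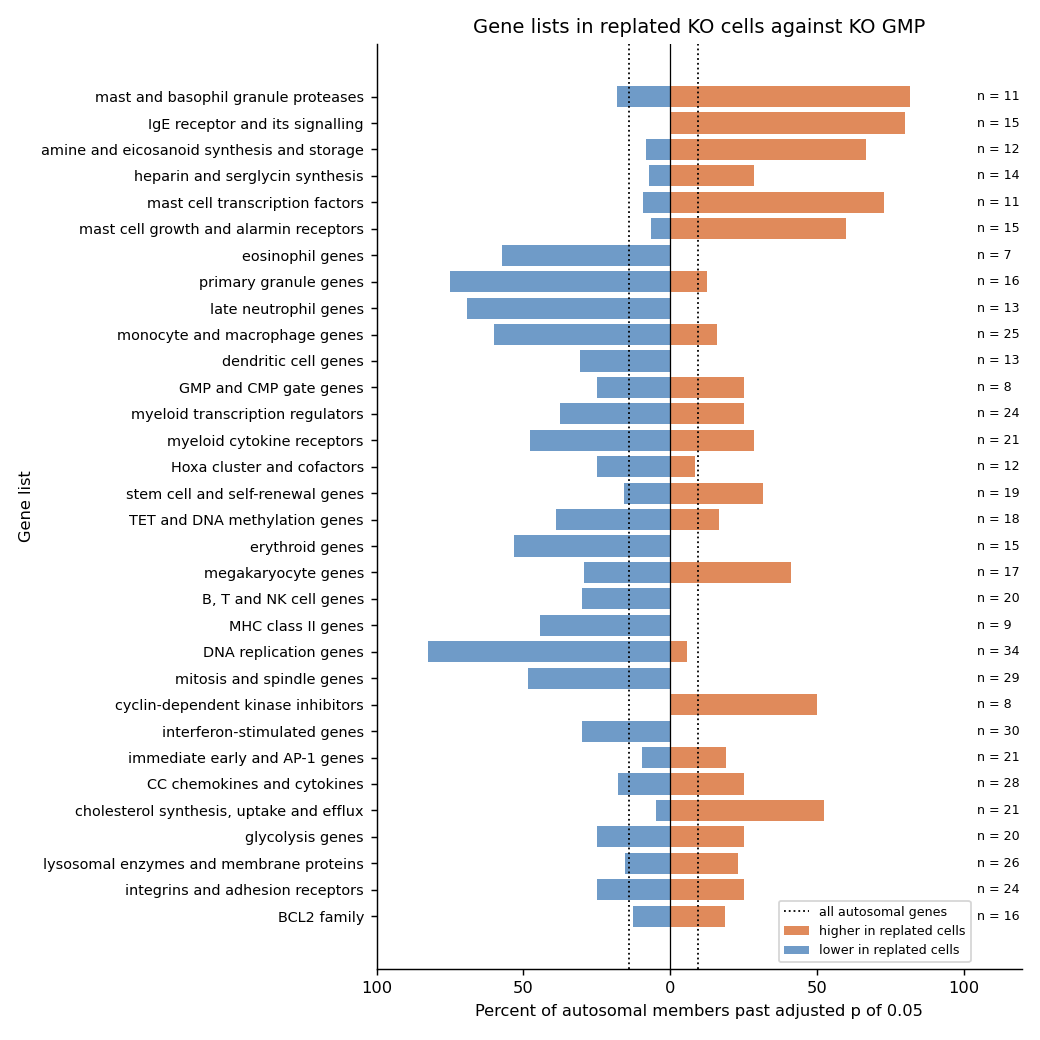
Percent of the autosomal members of each gene list (horizontal axis) that passed an adjusted p of 0.05 as higher (orange, to the right) or lower (blue, to the left) in replated cells than in KO GMP, with the number of members (n). Dotted lines mark the shares among all autosomal genes, 9.37% higher and 14.1% lower. Granule protease and IgE receptor lists reach furthest to the right, with 9 of 11 and 12 of 15 members higher, and DNA replication furthest to the left, with 28 of 34 lower.

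Set against WT GMP, 9 granule proteases were higher and 2 lower, and 12 of 15 IgE receptor genes were higher. Of the primary granule list 2 genes were higher and 12 lower. These are the same counts as against KO GMP. DNA replication genes were lower in 29 of 34 cases and mitotic genes in 13 of 29. Cma1 was higher by 8.08 on the log2 scale (adjusted p = 1.2e-08) and Fcer1a by 7.24. The log2 difference was -6.66 for Cebpa, while Mpo and Hoxa9, with WT GMP levels of 12381 and 690, were below background in replated cells. Meis1 (higher, adjusted p = 0.010) and Cebpb (log2 -2.34, adjusted p = 0.020) passed against WT GMP, although neither passed against KO GMP. The 2 comparisons share the replated arrays.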

How the data were processed

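Total RNA was amplified with the Ovation system and hybridised to Affymetrix Mouse 430 2.0 arrays, per the labels' protocols. The authors deposited 1 linear intensity per probe set and array, made by RMA according to the submitters' processing notes. The software version, and which arrays entered the normalization, are not given in the sources used. RMA corrects background, equalises the arrays and combines a set's probes into 1 value, so differences of dim genes can be understated. No further scaling was applied, and log2 was taken.

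Arrays were grouped by title into 7 groups of 2. The model was a mean per group over all 14 arrays in limma 3.58.1 (R 4.3.3, lmFit and eBayes, 7 residual and 2.02 prior degrees of freedom), with two-sided tests and Benjamini-Hochberg adjustment over all 45101 probe sets. An adjusted p below 0.05 counted as called. SE is limma's moderated standard error, and folds are log2 differences turned back to a linear ratio. The model was also run on simulated arrays, with independent noise drawn from its own fitted variances. That run cannot check the calls made here. The number of arrays limits the precision, and no batch is given in the labels.

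The platform annotation names 1 gene for 34958 probe sets and several for 932; 9211 are not listed there. Of the 34958, 34754 matched a RefSeq table (GRCm38.p6). Each gene was read through its brightest probe set (mean log2 over the 14 arrays). Of the 213 other probe sets of called named genes, 147 moved the same way at unadjusted p below 0.05, 31 did not pass, 34 lay below the floor and 1 (Lta4h) moved the other way. No other probe set of Cyp11a1, Itgb3, Idh2, Cdc45, Ms4a6c or Aff3, among other genes, moved the same way at that threshold. The floor is the highest of 27 bacterial control probe sets of an array.

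Named genes were the 12 largest rises and falls above the floor. The 6 with the smallest p from or to below it in each direction were added. From each list up to 5 called members with the smallest p were taken, beside followed regulators. All members were taken from the gate and primary granule lists and from the mast cell lists other than the growth and alarmin receptors. Others are said to be chosen after their values were seen. The members and lists were chosen with earlier results of these data known, so lists are described by counts and medians beside all genes and have no test. Same-numbered arrays of KO GMP and replated cells did not deviate together (r = 0.009). A single correlation cannot decide whether the numbers pair the arrays, which were treated as unpaired in the model. Alternatives changed the arrays fitted, scaling, filter, floor, probe set choice, variance model, threshold and comparator.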

Additional observations from a re-analysis of the deposited data

How the results depend on the processing

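The count of 8553 probe sets called held within 1.5 times in the fit of the 4 arrays alone (11329), the fit of the 8 KO arrays (7923), with median centring (8503), quantile normalization (8558), 16 added before log2 (8676), a filter on low values (8927), values raised to the floor (8141), a trended robust variance (8836), without X and Y genes (8283) and with WT GMP as comparator (8850). The fit with a replicate block gave 8386. Leaving out 1 array gave 5335 to 5763 probe sets, 1064 to 1160 autosomal genes higher and 1555 to 1712 lower, from fewer arrays and with the lone array assumed to vary like the other groups. An adjusted p below 0.01 gave 5247 probe sets, 1066 genes higher and 1610 lower. Of the 206 named genes called, 180 passed under each of the 18 alternatives that tested them, 189 passed without each of the 4 arrays in turn, and none changed direction. Of the counts per list, 44 of 922 moved by over 1.5 times under other settings and 45 of 264 with an array left out. Genes near the floor have bounds only: 48 autosomal genes were called with all 4 arrays below it, and these differences have no fold. Culture, starting population, gate and sex-linked expression differ together between the groups and cannot be told apart.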
